A study of Homo sapiens with 6 samples.

Results

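The resting expression state of JIMT-1 cells was read from the 3 CTL samples of a series of 6. JIMT-1 is an established human breast cancer line that the labels call HER2+, and it is used as a model of disease that no longer responds to trastuzumab, an antibody against HER2. CTL cells received the vehicle, PBS, for 24 h. The other 3 samples received 250 µM aCT1, a peptide modelled on the tail of the gap junction protein Cx43, for the same time and were not used here. The CTL samples therefore carry no drug, genotype or time contrast, and the values describe 1 cell line in 1 condition. All 758 genes of the table were kept and ranked by their mean over the CTL samples.

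RNA was hybridized to the nCounter Breast Cancer 360 panel, in which a barcoded probe pair captures each transcript and the barcodes are counted one by one, without amplification. The unit is the normalized count, a barcode count scaled to housekeeping genes. Every gene has its own probe and no value depends on transcript length, but the efficiency of each probe is not known, so a level set beside that of another gene compares probe counts. The 3 samples held 1494919, 1481260 and 1445341 counts before normalization. No pair of samples was identical. The chi-square of each pair, divided by its degrees of freedom, lay between 1.66 and 2.80, where counting error alone gives a value near 1. The labels do not say that the samples came from separate cultures, so the spread given as SD (n = 3 throughout) may be technical. With 1 group there was nothing to test, and all values are descriptions.

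Breast epithelium has luminal cells, which face the duct and carry hormone receptors and simple keratins, and basal cells, which rest on the basement membrane and carry KRT5, KRT14, laminins and integrins. Breast tumors are sorted by the estrogen receptor, the progesterone receptor and HER2, and by gene classifiers built on luminal, basal, HER2 and proliferation genes. HER2 is a receptor tyrosine kinase of the EGF receptor family that signals through the RAS-MAPK and PI3K-AKT pathways.

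The levels differed widely between genes. The highest mean was that of ENO1, at 53408 normalized counts, the median gene had 165, and the lowest gene, SOX10, had 1 recovered count in each sample. There were 34 genes with a mean of at least 10000 and 231 with a mean of at least 1000. A mean of 40 normalized counts was taken as a line under which a level is called near background, and 305 of the 758 genes (40.2%) lay under it. The counts under the line given for each list below are to be read beside this share of the panel. The line was set by choice. The background of a sample was not measured, since the values used here include no negative-control probes. Genes under the line were not ordered against each other, and one called the lowest of a list had the smallest probe count. The 10 highest genes held 24.6 ± 0.187% of the signal of a sample, the 50 highest held 57.0 ± 0.105%, and the 305 genes under the line together held 0.369 ± 0.037%.

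**Figure D1:**
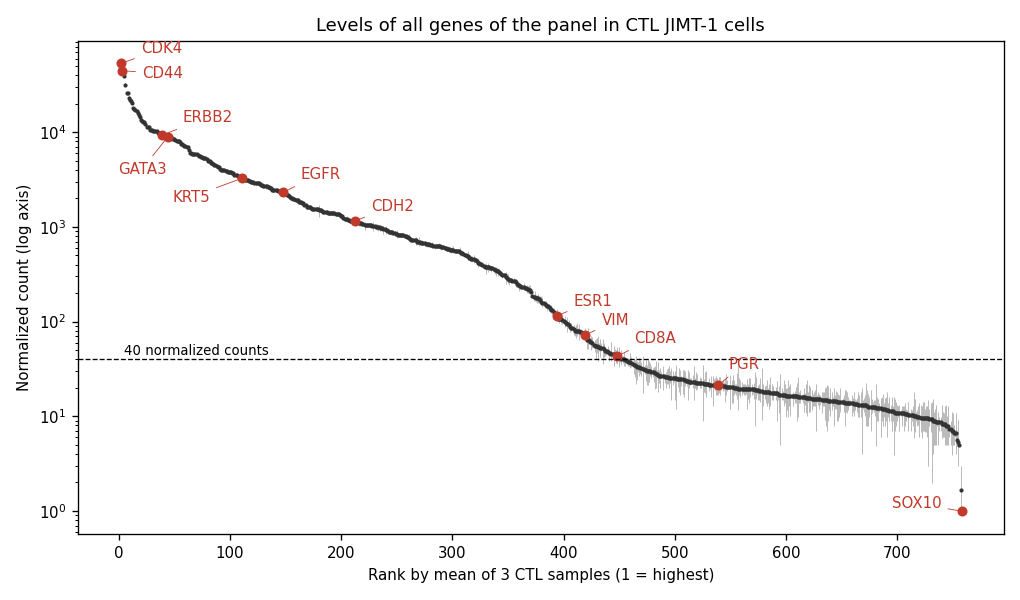
Mean normalized count of each of the 758 genes in CTL cells (log axis) against its rank, with a grey bar from the lowest to the highest of the 3 samples. The curve falls steadily from ENO1 at 53408 to the line at 40 (dashed) and then flattens over 305 genes, and ERBB2, GATA3, KRT5 and EGFR sit high on it while PGR and SOX10 sit under the line.

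The 15 highest genes came from a few kinds of cell function. Glycolytic enzymes were ENO1 (enolase) at 53408 ± 153, PGK1 (phosphoglycerate kinase) at 31883 ± 1162 and ALDOA (aldolase) at 17711 ± 831. Cell cycle genes were CDK4, the kinase that phosphorylates RB1 in G1, at 53279 ± 774, CCNB1 (cyclin B1) at 25999 ± 491, UBE2C, an E2 enzyme of the anaphase-promoting complex, at 21971 ± 251, CKS1B, a cofactor of cyclin-dependent kinases and of SKP2, at 17032 ± 114, and SFN (14-3-3 sigma), a G2 checkpoint protein of epithelial cells, at 20272 ± 414. SKP1, a core subunit of SCF ubiquitin ligases, had 25661 ± 347 and PSMB7, a proteasome subunit, had 21409.5 ± 506.

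Surface and chromatin genes completed the 15. CD44, the hyaluronan receptor, came after ENO1 and CDK4 with 43876, 45352 and 44349 normalized counts in CTL 1, 2 and 3, and ITGB1, the integrin beta1 chain, had 17861 ± 361. EIF4EBP1, the translation repressor that mTOR switches off, had 41974 ± 907. The linker histone HIST1H1C had 39142 ± 847 and HMGA1, an architectural DNA-binding protein, had 22934 ± 882. Histone genes have near-identical copies, so the level of HIST1H1C is uncertain as that of a single gene.

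The order at the very top was clear for some neighbours only. ENO1 had 53376, 53574 and 53273 and CDK4 had 53614, 53828 and 52394 in the 3 samples, so their ranges overlapped. CCNB1 overlapped SKP1, UBE2C overlapped PSMB7, ITGB1 overlapped ALDOA, and ALDOA overlapped CKS1B. The other neighbouring pairs among the 15, such as CD44 and EIF4EBP1, did not overlap.

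Of HER2, the estrogen receptor and the progesterone receptor, only HER2 was at a high level. ERBB2, which encodes HER2, had 9042, 9480.5 and 9427 normalized counts in CTL 1, 2 and 3, a mean of 9316 ± 239, and ranked 39 of 758. ESR1, the estrogen receptor, had 106, 104 and 137, a mean of 115 ± 18.5. The progesterone receptor PGR had 16.6, 22.9 and 24.1, all under the line. Within each sample ERBB2 was 81.98 ± 11.7 times ESR1 (SD, n = 3). The levels did not go against the HER2+ label of the line, with ESR1 above the line in all 3 samples but under the median gene and PGR under the line in all 3.

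EGFR, the receptor for EGF and amphiregulin, had 2375, 2392 and 2218, and ERBB2 was 4.01 ± 0.225 times EGFR within a sample. ERBB4 had 12.7, 6.98 and 5.03. The order ERBB2, EGFR, ESR1 held without overlap between neighbours, and PGR and ERBB4, both under the line, were not ordered. ERBB3 was not analysed here. All 3 measured ligands of this family were above the line in every sample, with AREG (amphiregulin) at 623 ± 18.01, EREG (epiregulin) at 103 ± 14.3 and EGF itself at 78.9 ± 5.69.

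The genes nearest to ERBB2 on chromosome 17 that the panel measures differed widely. GRB7, an adaptor that binds HER2, had 9278, 9918 and 10349.7, and MED1, a Mediator subunit, had 8139, 8007 and 7674. GRB7 was 1.06 ± 0.0371 times ERBB2, and their ranges overlapped. IKZF3, a lymphoid transcription factor on the other side of GRB7, had 26.4, 17.9 and 37.2, under the line. Among the 50 highest genes, ERBB2 and GRB7 were 1 of 5 pairs of neighbouring panel genes. The others were HIST1H1C with HIST1H2BH and HIST1H2BH with HIST1H3H on chromosome 6, KIFC1 with HMGA1 on chromosome 6, and EIF4EBP1 with NSD3, a histone methyltransferase at 13429, on chromosome 8.

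Among the 13 other receptor tyrosine kinases, 7 were over the line. MET, the receptor for hepatocyte growth factor, was highest at 2779 ± 100.4, followed by FGFR4 at 837 ± 33.6 and FGFR2 at 815 ± 17.4, whose ranges overlapped. IGF1R, the receptor for insulin-like growth factor 1, had 689 ± 26.1, FGFR3 had 274 ± 26.9 and PDGFRA had 274 ± 5.62. The lowest was the endothelial receptor KDR, at 6.93 ± 3.32, and KIT had 12.3 ± 3.65.

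The lineage genes did not follow a single program. Of 23 luminal genes, 11 were under the line, not far from the 40.2% of all genes. Their median was 115, below the median of 165 over all genes. GATA3, the transcription factor of luminal cells, was the highest of them and had 8889, 9094 and 8720.1, CXXC5 had 3969 ± 35.4 and the epithelial factor ELF3 had 2009 ± 96.5. FOXA1, which opens chromatin for the estrogen receptor, had 114, 114 and 128, and GATA3 was 75.3 ± 6.19 times FOXA1. The estrogen-responsive secreted peptides TFF1 and TFF3 had 10.9 ± 4.05 and 5.64 ± 1.21, AGR2 had 15.5 ± 4.77 and the survival factor BCL2 had 20.6 ± 6.56. TFF3 was the lowest of the list.

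Of 20 basal genes, 5 were under the line and the median was 1656. ANLN (anillin, a cytokinesis protein that is also on the proliferation list) at 12908 ± 209, the hemidesmosome integrin ITGA6 at 12269 ± 406 and the caveolar coat protein CAV1 at 9512 ± 109 were the highest. SFRP1, a secreted Wnt antagonist, had 6898, 6500.5 and 6255, P-cadherin (CDH3) had 3159.8 ± 96.7 and the basal transcription factor FOXC1 had 1211, 1174 and 1203. The 5 genes under the line were KRT6B, KRT14, KRT17, MIA at 15.9 ± 2.72 and SOX10. The 1 recovered count of SOX10 in each sample may be a measured count or the lowest value the normalization allows, which is not given in the sources used here.

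The keratins fell into a high and a low set. KRT7, a simple keratin of glandular epithelium, had 7259.9, 7377 and 7612, and KRT5, a basal keratin, had 3294, 3295 and 3224. KRT14, the usual partner of KRT5 in basal cells, had 26.4, 12.96 and 25.1, under the line in every sample. KRT6B had 21.5, 39.9 and 29.2 and KRT17 had 9.79, 8.97 and 16.1. KRT7 and KRT5 did not overlap, while KRT6B overlapped KRT14 and KRT14 overlapped KRT17, and the 3 low keratins, all under the line, were not ordered. KRT8, KRT18 and KRT19 were not analysed here.

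**Figure D2:**
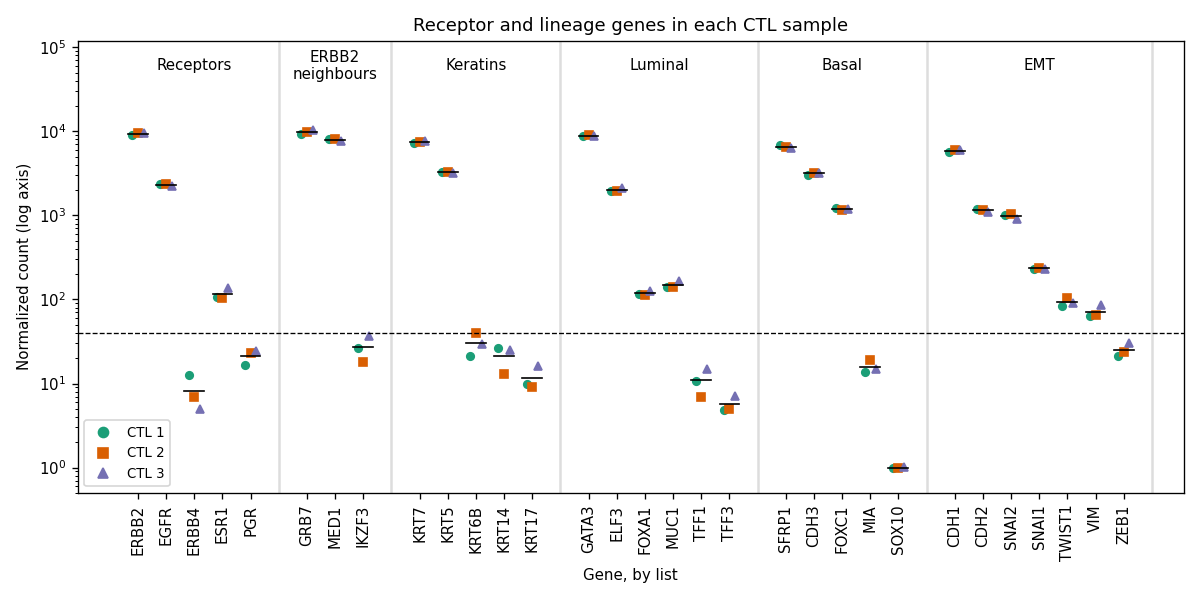
Normalized counts (log axis) of receptor and lineage genes in CTL 1 (circles), CTL 2 (squares) and CTL 3 (triangles), with a bar at the mean and a dashed line at 40. ERBB2, GRB7, GATA3, KRT7, KRT5 and CDH1 lie far above the line in all samples, and PGR, ERBB4, TFF1, TFF3 and the keratins KRT14 and KRT17 lie under the line in all samples, where the points of a gene are far apart on the log axis.

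Epithelial adhesion genes were mostly high, with 3 of 11 under the line and a median of 620.2. KRT7, E-cadherin (CDH1) at 5869 ± 201 and the tight junction protein CLDN4 at 4451 ± 80.02 led the list, and CLDN7 had 731 ± 21.4. CLDN3, at 26.9 ± 4.33, and the carcinoembryonic antigen genes CEACAM6 (18.9 ± 10.6) and CEACAM5 (13.6 ± 1.70, the lowest) were under the line.

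Of 17 mesenchymal and EMT genes, 7 were under the line, near the 40.2% of all genes, and the median was 83.2. CD44 was the highest member and FOXC1 had over 1000 in every sample, and epithelial cells can express both. N-cadherin (CDH2) had 1176, 1169.5 and 1112, and E-cadherin was 5.10 ± 0.266 times N-cadherin. The EMT repressor SNAI2 (Slug) had 999, 1045 and 911, while SNAI1 had 234 ± 4.74, TWIST1 had 92.8 ± 9.97, ZEB1 had 25.2 ± 4.46 and ZEB2 had 18.9 ± 1.55. VIM (vimentin), the intermediate filament of mesenchymal cells, had 63.6, 64.8 and 86.5, and its ratio to the endothelial marker PECAM1 was 1.00 ± 0.245. The lowest was the transcription factor TCF4, at 14.3 ± 3.91.

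Laminins of the basement membrane and the integrins that bind matrix were mostly high. The laminin chains LAMB3, at 1621 ± 38.1, and LAMA3, at 1448 ± 43.5, were over 1000 in every sample, and their ranges did not overlap. Of 8 laminin and integrin genes, ITGB1, ITGA6 and ITGAV (3282 ± 57.2) were highest, and 2 were under the line, ITGB6 at 32.8 ± 7.59 and ITGB3 at 20.2 ± 6.78, the lowest. Of 21 matrix and protease genes, 15 were under the line and the median was 30.8. The exceptions included PLAT (tissue plasminogen activator) at 8490.4 ± 114, ADAM12 at 1154 ± 83.2 and the cartilage collagen COL2A1 at 721 ± 12.9, and the lowest was RELN at 10.6 ± 3.10.

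Proliferation genes were high throughout. None of the 40 was under the line, 37 had a mean of at least 1000, 14 were among the 50 highest genes of the panel, and their median was 4546, against 165 over all genes. CCNB1 had 26358, 26199 and 25439.5, UBE2C had 21904, 22249 and 21760.1 and RRM2, a subunit of ribonucleotide reductase, had 15596, 15298 and 14783. The mitotic kinase AURKA had 8834 ± 65.2 and MKI67, which encodes the Ki-67 antigen, had 8379, 8089.7 and 7669.6. The transcription factors that drive mitotic genes were high too, with FOXM1 at 8673 ± 217 and MYBL2 at 5931 ± 163. The 3 genes under 1000 were E2F1 at 659.6 ± 41.95, UBE2T at 576 ± 37.9 and NUF2, a kinetochore protein and the lowest, at 575 ± 36.1. All 50 genes of the PAM50 subtype classifier were measured, with 8 under the line and a median of 2497, and its 3 highest, CCNB1, UBE2C and RRM2, are proliferation genes. Its lowest was KRT17.

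Promoters of cell cycle genes are known for 2 short motifs, CCAAT, bound by NF-Y, and TTTGAA, the core of the cell cycle homology region, through which MYBL2-containing and repressor complexes act. Both were searched as letters on both strands, so that ATTGG also counts for the first motif and TTCAAA for the second, in the first listed window of a gene, from 250 bases before to 50 bases after its start (RefSeq, GRCh38.p14). The motifs can share at most 1 base. A window was matched for 34 of the 40 proliferation genes. CCAAT was in 22 of the 34 (64.7%), against 35.7% of 27305 promoters and 40.1% of the panel's matched promoters. TTTGAA was in 14 of the 34 (41.2%), against 15.4% of all promoters and 16.4% of the panel's matched ones. Both were in 11 (32.4%), against 6.08% of all promoters and 9.23% of the panel's matched ones. A match is a description of letters and not a site in use. The 200 bases before the start are shown for CCNB1, the highest gene of the list, and for TOP2A, CDC20 and KIF23, which hold both motifs there, with the motifs in capitals.

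CCNB1, chr5:69166950-69167149, plus strand: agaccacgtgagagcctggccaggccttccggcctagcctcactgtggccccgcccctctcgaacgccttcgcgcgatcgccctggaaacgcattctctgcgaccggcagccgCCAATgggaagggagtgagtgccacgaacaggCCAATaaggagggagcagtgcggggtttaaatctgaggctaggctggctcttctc
TOP2A, chr17:40417897-40418096, minus strand: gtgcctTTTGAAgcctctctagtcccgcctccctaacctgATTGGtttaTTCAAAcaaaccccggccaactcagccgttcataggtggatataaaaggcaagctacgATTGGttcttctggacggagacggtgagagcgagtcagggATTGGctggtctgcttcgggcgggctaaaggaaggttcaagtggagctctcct
CDC20, chr1:43358781-43358980, plus strand: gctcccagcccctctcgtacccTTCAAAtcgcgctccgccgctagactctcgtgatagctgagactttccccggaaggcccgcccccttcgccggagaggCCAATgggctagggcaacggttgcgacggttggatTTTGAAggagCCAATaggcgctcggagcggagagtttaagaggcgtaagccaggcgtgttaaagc
KIF23, chr15:69414149-69414348, plus strand: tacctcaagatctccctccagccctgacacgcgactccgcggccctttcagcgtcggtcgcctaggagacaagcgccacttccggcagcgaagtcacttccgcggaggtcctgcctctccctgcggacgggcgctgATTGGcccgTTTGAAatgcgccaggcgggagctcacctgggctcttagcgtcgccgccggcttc

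CCNB1 holds CCAAT at 2 places in this stretch. TOP2A, which encodes topoisomerase II alpha and lies on chromosome 17 like ERBB2, had 12563, 13123 and 12688 and its stretch holds 3 CCAAT and 2 TTTGAA matches. CDC20, an activator of the anaphase-promoting complex, had 3299, and KIF23, a kinesin of cytokinesis, had 9515.

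G1 and G2 regulators were high except for a few members, with 3 of 27 under the line and a median of 1384. CDK4, CCNB1 and CKS1B were the highest. CDK4 was 185 ± 12.1 times its paralog CDK6, which had 313, 285 and 269. Cyclin D1 (CCND1) had 10367 ± 167, while cyclin D2 (CCND2) was the lowest of the list at 14.9 ± 3.73. SKP2, which targets the inhibitor p27 for degradation, had 9803 ± 67.9, and CDKN1B, which encodes p27, had 1384 ± 30.9. CDKN2A, which encodes p16 and p14ARF, had 3039 ± 31.2 and RB1 had 1407 ± 66.97. CDKN1A, which encodes p21, had 113, 107 and 97.5.

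Of 13 damage response genes, 1 was under the line, GADD45G at 24.5 ± 7.15, the lowest. SFN was the highest, and the ubiquitin ligase MDM2 had 5808 ± 163. The genes lay at very different levels, since MDM2 was 55.1 ± 2.46 times CDKN1A and SFN was 192 ± 10.1 times CDKN1A. Of 6 BCL2 family genes, the pro-survival BCL2L1 was highest at 7542 ± 57.7, followed by the pro-apoptotic BAX at 3698 ± 47.7 and BAD at 1187 ± 28.6. BBC3 (PUMA) had 267 ± 14.4. BCL2 was under the line, and BCL2A1, at 15.9 ± 1.69, was the lowest.

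DNA repair genes were all over the line, 29 of 29, with a median of 1044. PRKDC, the catalytic subunit of DNA-PK, had 8381 ± 241, PARP1 had 5836 ± 93.3 and the clamp loader RFC4 had 4722 ± 158. BRCA1 had 858, 829.5 and 806 and BRCA2 had 1119.5, 1039.9 and 901. The glycosylase NEIL1 was the lowest, at 124 ± 12.5. All 10 chromatin regulators were over the line, with the deacetylases HDAC1 at 5829.9 ± 126 and HDAC2 at 3120.3 ± 81.1 and the SWI/SNF subunit ARID1A at 1945 ± 42.7 highest and HDAC6 lowest, at 309 ± 11.6.

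In the PI3K and MAPK core, 7 of 27 genes were under the line and the median was 528. The AP-1 subunits FOSL1 (13198 ± 421) and JUN (7201 ± 92.6) were the highest, and the PI3K regulatory subunit PIK3R5 was the lowest at 10.3 ± 2.85. FOS, another AP-1 subunit, had 46.97, 32.9 and 32.2, on both sides of the line, with a mean under it. DUSP4 and DUSP6, phosphatases that switch off MAP kinases, had 6005 ± 71.96 and 134 ± 13.8. MYC had 5845 ± 91.5. PIK3CA, the catalytic subunit p110alpha, had 1503 ± 35.8.

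All 12 hypoxia and glycolysis genes were over the line, with a median of 684. ENO1, PGK1 and ALDOA led, and HIF1A had 9021, 8967 and 9032. HIF1A, whose protein is controlled mainly by its stability, was far above the glucose transporter SLC2A1 at 414 ± 4.94, VEGFA at 378 ± 53.9 and hexokinase HK2, the lowest, at 282 ± 33.9.

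**Figure D3:**
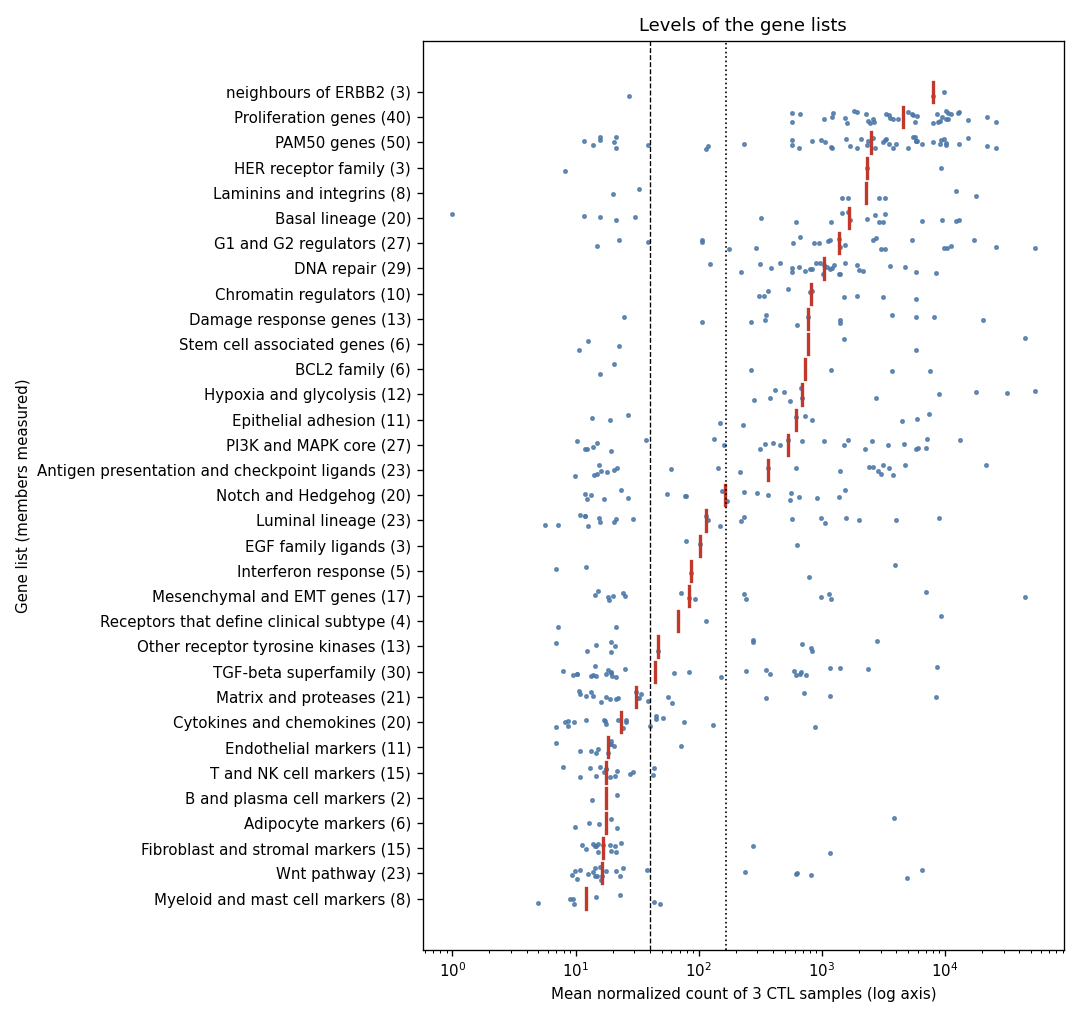
Mean normalized count (log axis) of each measured member of the 33 gene lists, with the number of members beside the name, a red bar at the list's median, a dashed line at 40 and a dotted line at the median of all genes, 165. Proliferation, DNA repair, chromatin and glycolysis genes have no member under the dashed line, and the lists of blood, endothelial, stromal and Wnt genes lie mostly to its left.

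Antigen presentation genes split by class. Of 23 genes with the checkpoint ligands, 8 were under the line. PSMB7, a constitutive proteasome subunit, the checkpoint ligand CD276 (B7-H3, 4699.7 ± 56.01) and HLA-B (3758 ± 168) were the highest. The class I gene HLA-C had 3519 ± 159 and the peptide transporter TAP1 had 2581 ± 87.7, and class I genes share near-identical sequence, so single levels are uncertain. Class II genes were near background, with HLA-DRA at 17.9 ± 5.77 and HLA-DQB1 the lowest at 9.97 ± 4.46, except HLA-DMA at 216 ± 25.8 and HLA-DOB at 59.9 ± 7.95. CD274, which encodes PD-L1, had 378, 358 and 368, and CD276 was 12.8 ± 0.489 times CD274. IDO1 was under the line, at 14.2 ± 0.644. Of 5 interferon response genes, ISG15 had 790.2 ± 39.6, OAS3 had 87.01 ± 9.27, and the chemokines CXCL9 and CXCL10 were under the line, CXCL10 lowest at 6.98 ± 3.68.

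Cytokines and chemokines were low, with 13 of 20 under the line and a median of 23.2. LIF, a cytokine of the IL-6 family, stood apart at 908, 860.4 and 892, followed by TNF at 131 ± 12.2 and IL6 at 76.5 ± 5.71, and CXCL10 was the lowest. In the TGF-beta superfamily, 15 of 30 genes were under the line. The downstream regulator ID1, at 8652 ± 455, the receptor BMPR1A, at 2353 ± 14.8, and the signal transducer SMAD5, at 1407 ± 60.4, were the highest, and the receptor BMPR1B was the lowest at 7.93 ± 2.58. Of the ligands, TGFB2 had 243 ± 16.4 and TGFB1 had 83.2 ± 10.1, a ratio of 2.93 ± 0.202.

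Wnt pathway genes were mostly near background, with 17 of 23 under the line and a median of 16.3. The 6 over it were the antagonist SFRP1, the kinase GSK3B at 4952 ± 104, the ligands WNT5B (816 ± 29.3) and WNT7B (625 ± 19.2), AXIN1 (621 ± 38.1) and the receptor FZD7 (238 ± 12.6). AXIN2, a transcriptional target of the pathway, had 15.9 ± 2.45, and WNT10A was the lowest at 9.28 ± 4.05. Of 20 Notch and Hedgehog genes, 6 were under the line and the median was 163. NOTCH2 was highest at 1544 ± 31.4, followed by DTX3 at 1384 ± 14.8 and NUMBL at 916 ± 46.2, and the ligand DLL1 was lowest at 11.9 ± 4.67.

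Of 6 stem cell associated genes, CD44, MYC and CD24 were over the line, and SOX2 (22.5 ± 0.594), ALDH1A1 (12.6 ± 2.34) and PROM1 (CD133, the lowest, 10.6 ± 1.66) were under it. CD24 had 1552, 1288 and 1703, and CD44 was 29.8 ± 4.78 times CD24.

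Markers of other cell types were near background, with 8 exceptions. Of 57 markers of blood, endothelial, stromal and fat cells, 49 were under the line, with a median of 17.6. Of 25 blood cell markers, 21 were under the line and the highest was the macrophage marker CD68, at 51.9, 49.9 and 44.2. T and NK cell markers (15 genes) were led by CD8A (43.1 ± 9.94), PDCD1 (42.8 ± 10.6) and NKG7 (29.1 ± 3.13), and CD27 was lowest at 7.91 ± 4.20. The B cell marker PAX5 had 13.6 ± 2.39. After CD68, the highest of 8 myeloid and mast cell markers were CSF3R at 43.1 ± 3.78 and HDC at 22.9 ± 10.04, and the mast cell protease CPA3 was lowest, with 5 recovered counts in each sample. Of 11 endothelial markers only PECAM1 (72.2 ± 4.52) was over the line, ahead of CLEC14A (20.5 ± 0.416) and CDH5 (19.5 ± 2.19), and KDR was lowest. Of 15 fibroblast and stromal markers, ADAM12 and PDGFRA were over the line, OGN came next at 23.2 ± 1.82 and ASPN was lowest at 11.3 ± 4.57. Of 6 adipocyte markers, PPARG, a nuclear receptor, had 3868, 3809 and 3839, while CFD (21.9 ± 1.13), CD36 (19.5 ± 5.17) and PPARGC1A (the lowest, 9.91 ± 2.48) were under the line.

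The line at 40 did not separate 2 clear classes. The 5 genes just over it were NR4A1 at 40.4, CCL21 at 40.5, LINC02381 at 41.7, PDCD1 at 42.8 and CSF3R at 43.1. The 5 just under it were MAPK8IP2 at 39.8, CDKN1C at 39.1, MMP11 at 39.1, DDR2 at 38.4 and EYA2 at 37.7. PDCD1 had 33.3, 40.9 and 54.3 and MAPK8IP2 had 37.2, 33.9 and 48.3, so both crossed the line between samples. In all, 24 genes had values on both sides, 11 of them with a mean under the line, and 294 genes were under it in all 3 samples. There were 16 genes over the line at or below the level of CD68, the highest blood cell marker. The 5 lowest genes were SOX10, PTGDS at 0.979, 2.99 and 1.01, CPA3, IL3RA at 3.91, 2.99 and 9.05 and TFF3 at 4.89, 4.99 and 7.04.

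The genes under the line did not have the same level in each sample. Their median was 16.6 in CTL 1, 14.96 in CTL 2 and 18.1 in CTL 3. They were highest in CTL 3 in 156 of 305 cases (51.1%), against 29.8% of genes over the line. They were lowest in CTL 2 in 137 (44.9%), against 22.1%. With equal medians per sample these shares of the genes under the line were 43.6% and 40.7%, against 11.7% and 10.2%. The median of all genes was 159, 157 and 167 in the same order.

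Replicates were close for most expressed genes. Across genes, log2 levels of 2 samples correlated with Pearson's r between 0.993 and 0.994, a description in which genes are not independent. The median CV over the 3 samples was 3.48% in the 453 genes over the line and 22.3% in the 305 under it. It was 37.1% in genes with a mean under 10, 11.9% from 40 to 100, 5.08% from 100 to 1000, 2.71% from 1000 to 10000 and 2.08% above. In the last class counting alone gives 0.798%, so the spread there was wider than counting, while from 40 to 100 counting alone gives 13.3%. A median CV of 3 samples tends to fall below the counting value, so 11.9% is not read as narrower than counting.

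For each gene, the variance over the samples was divided by the variance that counting alone gives. This ratio was 3 or more in 131 of the 453 genes over the line (28.9%). Counting alone also gives a ratio of 3 or more in some genes, so not all of the 131 vary beyond it. Without CTL 3 the count was 81, from a variance of 2 samples, which is not on the same base. With equal medians per sample the count was 226. With the deposited scaling, the share of such genes rose with level. It was 5 of the 52 genes from 40 to 100 and 25 of the 34 genes of at least 10000. The 5 genes with the highest ratio were PGK1 (42.6), ALDOA (39.2), HMGA1 (34.1), GRB7 (29.7) and CD24 (29.3). PGK1 had 30796, 31746 and 33107 and ALDOA had 16959, 17569 and 18603, both lowest in CTL 1 and highest in CTL 3. HMGA1 had 22435, 23952 and 22415, highest in CTL 2. The steadiest genes by CV were CDC25B, a mitotic phosphatase, with 2676, 2670.0 and 2673, ENO1, and the kinase PRKCA, with 501, 498 and 499.6. ENO1 had a CV of 0.287% while PGK1, another glycolytic enzyme, had 3.64%.

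**Figure D4:**
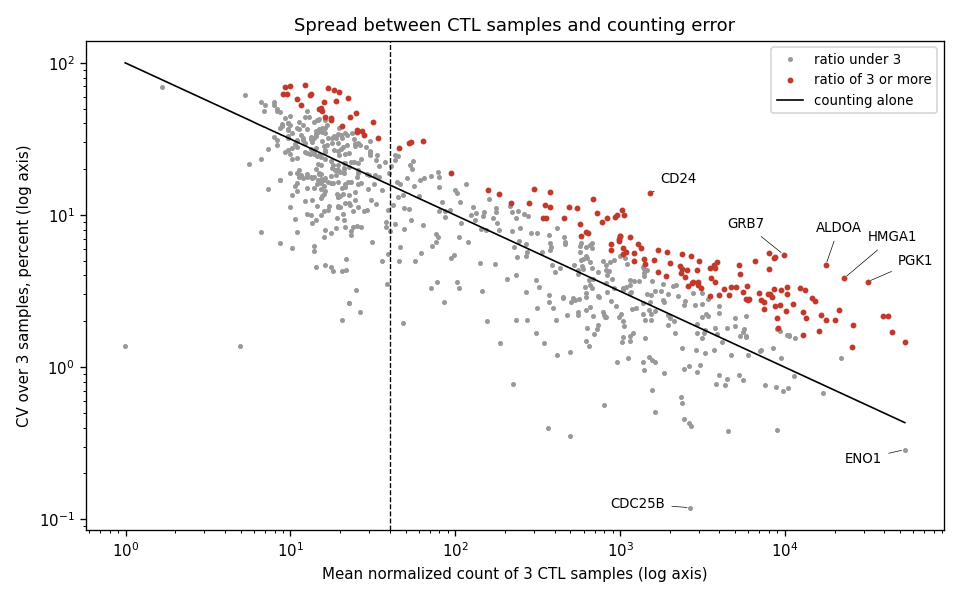
Coefficient of variation over the 3 CTL samples (percent, log axis) against mean normalized count (log axis) for the 758 genes, with the black line showing counting error alone and red points marking genes whose variance is at least 3 times counting. Most points under 1000 lie around the black line, and at the right end PGK1, ALDOA, HMGA1 and GRB7 lie well above it while ENO1 and CDC25B lie below it.

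Among genes of at least 1000 normalized counts, only CD24, BRCA2 and NUPR1 had a CV over 10%. CD24 was lowest in CTL 2, with a CV of 13.9%, and BRCA2 was lowest in CTL 3, with 10.9%. NUPR1, a stress-induced chromatin protein, had 933, 1127 and 1103.

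Some lists were highest or lowest in the same sample for most of their genes, by small amounts. Proliferation genes were lowest in CTL 3 in 29 of 40 cases (72.5%), against 45.9% of the 453 genes over the line and 60.2% of the 231 genes of at least 1000, and the median log2 difference of the list from each gene's mean was -0.031 in CTL 3. Hypoxia and glycolysis genes were highest in CTL 3 in 9 of 12 (75%), against 29.8% of genes over the line, with a median log2 difference of 0.063. They were lowest in CTL 1 in 7 of 12 (58.3%), against 32.0% of genes over the line. The 12 luminal genes over the line were highest in CTL 3 in 8 cases (66.7%), against 29.8% of genes over the line. They were highest in CTL 1 in 0, against 31.6%. Their median log2 difference was 0.055 in CTL 3. The 7 cytokine genes over the line were lowest in CTL 2 in 7 of 7, against 22.1% of genes over the line and 44.2% of the 52 genes from 40 to 100, where 5 of the 7 lay, beside the median of the genes under the line, which was lowest in CTL 2 as well. The part of background in the cytokine values was not tested. The counts for CTL 3 depend on the scaling. With equal totals and with equal medians, glycolysis genes were still lowest in CTL 1 in 7 of 12. The share of genes over the line was 31.8% and 20.5%. Luminal genes were highest in CTL 1 in 0 under both, against 34.0% and 28.3%. With equal totals per sample, glycolysis genes were highest in CTL 3 in 10 of 12 and luminal genes in 8 of 12, against 35.1% of genes over the line. Under the same scaling, 65% of proliferation genes were lowest in CTL 3, against 38.9% of genes over the line and 49.8% of genes of at least 1000. Cytokine genes were lowest in CTL 2 in 7 of 7, against 29.4% of genes over the line and 48.1% of genes from 40 to 100. With equal medians per sample, 11.7% of genes over the line were highest in CTL 3, against 4 of 12 glycolysis and 6 of 12 luminal genes. The luminal genes were then lowest in CTL 3 in 5 of 12. Under equal medians the cytokine genes were lowest in CTL 2 in 6 of 7. The share was 10.2% of genes over the line and 38.5% of genes from 40 to 100. In CTL 3, 87.5% of proliferation genes were lowest under equal medians. So were 69.3% of all genes over the line and 88.3% of genes of at least 1000.

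**Figure D5:**
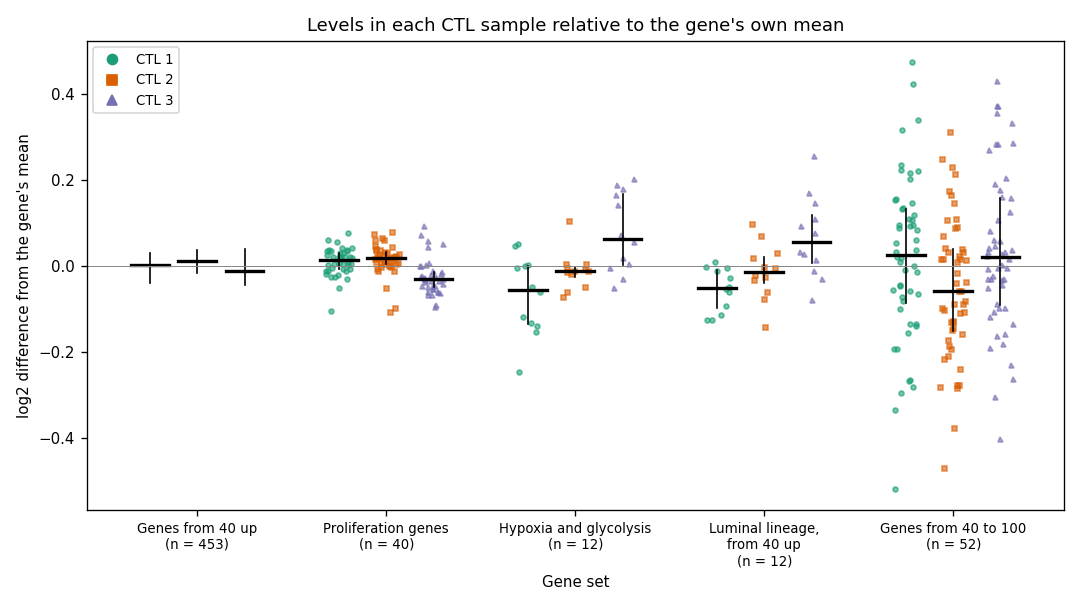
Difference of each gene's log2 level in CTL 1, 2 and 3 from its own mean (y axis, log2), for the 453 genes over the line and 4 sets within them, with a thick bar at the median and a thin line over the middle 50% of genes. With the deposited scaling, glycolysis and luminal genes sit low in CTL 1 and high in CTL 3. For CTL 3 this stays with equal totals per sample. With equal medians, the median difference in CTL 3 is 0.008 for glycolysis and -0.00033 for luminal genes. It is -0.066 for all genes over the line. Proliferation genes sit low in CTL 3 by less than 0.1 in most cases, and genes from 40 to 100 scatter widely in all samples.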

How the data were processed

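The nCounter Breast Cancer 360 panel was read in 3 CTL samples (PBS, 24 h). The authors scaled the barcode counts with nSolver 4.0, using housekeeping genes, and the deposited values of the 758 genes are a linear signal (normalized counts) together with its log2. A background subtraction is not given in the sources used here. Within each sample, 100% of linear values were whole multiples of 1 step (largest distance from a whole number 5.05e-06), which gave the recovered counts and their totals. Samples treated with aCT1 were not used.

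Python 3.11.15, pandas 2.3.3, numpy 2.4.6 and scipy 1.17.1 were used for means, SDs, CVs and Poisson counting error. Scripts were tested on simulated data. All 758 names matched RefSeq (749 by symbol, 9 by synonym). Promoters were matched for 75.7% of the genes, so no comparison of motifs by level is given, and shares in the proliferation list stand beside those of all promoters and of the panel's matched ones. Genes, lists and the line at 40 were chosen with earlier results of these data known. The text names the 15 highest genes, 5 on each side of the line, the 5 lowest, and the receptors and keratins. Among genes over the line it names the 5 whose variance most exceeds counting and the 3 with the lowest CV. It also names the 3 highest and the lowest of each list, with members a paragraph turns on. Some genes that the rule names are not reported here. Alternatives were other scalings, averages, lines and each sample left out.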

Additional observations from a re-analysis of the deposited data

How the results depend on the processing

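The count of 305 genes under the line was 304 to 310 with each sample left out, 304 to 307 under other scalings and averages, 294 when every sample had to be under it, and 206, 281 and 322 with the line at 20, 30 and 50. The 15 highest genes were the same 15 under every scaling, average and left-out sample tried. With each sample left out, the median level was 162 to 171, the share of the 10 highest genes 24.5 to 24.7%, that of the 50 highest 56.9 to 57.0%, and the number of lists with a median under the line 9 of 33. Without the genes under the line, the 50 highest held 57.2% and 0 lists had a median under 40, by construction. The 131 genes with a variance ratio of 3 or more became 81 to 138 with each sample left out, the lowest without CTL 3. Those variances rest on 2 samples and are not on the same base. The count was 119 with equal totals and 226 with equal medians. The cause was not tested. Of 405 values of 135 named genes under other scalings, 398 moved by less than 1 SD. Equal totals and equal medians nearly keep the average scale of the samples, so these scalings can move a mean only a little. With 3 samples, leaving out a sample or taking the median cannot move a mean by 1 SD, and the largest such move was 1.67-fold, for PTGDS without CTL 2, a gene of 1 to 3 counts. Depth limits the low genes: from 10 to 20 normalized counts the median CV from counting alone is 25.8%, so differences of that size under the line were not detectable. No paired analysis was possible because only the CTL samples were described and no test was made.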

Other observations

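Some genes of neural and embryonic development, chosen here after their values were seen, were well above the line in CTL cells. Others were under it, such as SOX2 at 22.5 ± 0.594 and SOX10 at 0.994 ± 0.0137. The share of such genes over the panel was not counted, so the examples do not describe a program. ZIC2, a zinc finger factor of the developing brain, had 2442, 2406 and 2450.0 normalized counts in CTL 1, 2 and 3, above the median of 165 over all genes. The neurotrophin BDNF had 1426, 1445 and 1400.4, the homeobox factor HOXB3 had 946 ± 23.8 (SD, n = 3), and the T-box factor TBX1 had 787 ± 18.1.

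Enzymes of serine and glycine metabolism, also chosen after their values were seen, included PSAT1 at 7237, 7633 and 7405, PHGDH at 2706 ± 11.1 (SD, n = 3) and the mitochondrial enzyme SHMT2, which makes glycine from serine, at 885 ± 52.2. RBX1, a subunit of cullin ubiquitin ligases, had 10488 ± 76.6. Genes with no list that ranked among the 60 highest included NETO2, a receptor auxiliary protein, at 8489.9, 7912 and 7610.3, FXYD3, a regulator of the sodium pump, at 8174, 8637 and 9067, and FSTL1, a secreted glycoprotein, at 8951, 9033 and 8726. FXYD3 was lowest in CTL 1 and NETO2 was lowest in CTL 3, and their variance was 23.3 and 25.1 times that of counting alone.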
